A study of Mus musculus with 20 samples.

Results

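The genes described here belong to the neurotransmitter release machinery and were followed across the cell types and ages of a single-cell RNA-seq study of cultured mouse retina. They were listed by name: *Stx3*, *Stx1a*, *Cplx1*, *Cplx2*, *Cplx3*, *Cplx4*, *Snap25*, *Syt1*, *Ctbp2* and *Cacna1f*, 10 of the 23260 genes counted. For each library their unique molecular identifiers (UMIs, each marking 1 captured RNA molecule) were summed over the cells that the authors had assigned to rods, cones, bipolar cells or amacrine cells. The 4 types held 19029 rods, 626 cones, 138 bipolar cells and 11315 amacrine cells at P2, and 19621, 216, 4392 and 2241 at P5, of 79009 cells in all. The 20 libraries came from retinal explants of CD1 wildtype mice, electroporated with a plasmid, cultured and reduced to their GFP-positive cells. The plasmid was the pCAGIG control, which drives GFP from a broadly active promoter (4 libraries per age), or carried MEIS1, MEIS2 or a 50:50 mixture of both (2 libraries each per age), and MEIS1 and MEIS2 are transcription factors of retinal progenitors. The sample labels give the ages as postnatal day 2 (P2) and postnatal day 5 (P5), while the series design gives 2 or 5 days of treatment and names NR2F1 and NR2F2 constructs, so the start of the culture is not settled by the labels. Controls and MEIS groups alike were electroporated, cultured and isolated by GFP, and no untreated retina was analysed here. The labels do not say whether libraries came from separate animals or cultures, so the p-values below measure the spread between these libraries, which may be technical. Age and library preparation cannot be told apart.

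At a chemical synapse the SNARE proteins syntaxin and SNAP-25 on the cell membrane pair with a vesicle SNARE, complexin clamps and assists the assembled complex, and synaptotagmin triggers fusion when calcium enters through nearby channels. Photoreceptors and bipolar cells release glutamate tonically at ribbon synapses, where a plate built from RIBEYE, a product of the *Ctbp2* gene, holds vesicles beside L-type calcium channels, and amacrine cells release GABA or glycine mostly at conventional synapses. Ribbon synapses of the retina use syntaxin 3 in place of syntaxin 1 and complexins 3 and 4 in place of complexins 1 and 2, and rods acquire their terminals during the first postnatal weeks. The 10 genes were therefore grouped into a ribbon set (*Stx3*, *Cplx3*, *Cplx4*, *Ctbp2*, *Cacna1f*) and a conventional or shared set (*Stx1a*, *Cplx1*, *Cplx2*, *Snap25*, *Syt1*). These names follow that background and not the data. Here *Cplx3* made up a mean of 87.1% of complexin UMIs in P5 amacrine cells and 44.3% in P5 rods, so it does not mark ribbon cells.

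Libraries held 1625 to 17739 cells, with a median of 992 to 14199 UMIs per cell. The library labelled P2 MEIS2 replicate 2 stood apart, with the median of 992 UMIs, 10.0% of its UMIs from *Malat1*, a nuclear RNA, and a median mitochondrial share of 0.387%. *Meis1* stood at 1579 to 3045 UMIs per 1000000 (CPM) over all cells of the MEIS1 libraries against 152 to 527 in the controls. *Meis2* was at 895 to 932 CPM in the P5 MEIS2 libraries against 246 to 473 in the P5 controls, and at 2137 to 2253 against 613 to 1059 at P2, so these levels follow the sample titles, which were used for grouping. The treatment tags name MEIS1 for all 4 single-construct libraries of P2 and MEIS2 for all 4 of P5. In 10 of the 20 libraries the cell barcodes begin with another name than the title: in 8 the group is that of the title but the number differs (P2 combination 1, P2 controls 2 to 4 and all 4 P5 controls), and P2 control 1 and P2 combination 2 carry the name of each other's group. P2 control 1 held 527 CPM of *Meis1* and 997 CPM of *Meis2*, and P2 combination 2 held 893 and 1820 CPM. P2 combination 1 held 1268 and 2017 CPM, and *Meis1* was at 170 to 266 CPM in P2 controls 2 to 4. Replicate numbers below are those of the titles. Without P2 control 1 and P2 combination 2, 6 members passed in the rod comparison of control ages described below, against 5 with them. The share of all genes passing without them is not reported here. No pair of libraries shared more than 0.876% of the smaller one's barcodes.

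Markers bore out amacrine cells at P2, cones in 6 of 7 libraries, and rods and bipolar cells at P5. They bore out amacrine cells at P5 except in P5 control 1 and P5 MEIS2 replicate 1. At P2 they did not bear out bipolar cells, and rods held as much of the cone and bipolar lists as of the rod list. A list of 8 rod genes (*Nrl*, *Nr2e3* and others) summed to a median of 1479 CPM in rods at P2 and 9039 at P5, against 202 and 446 in amacrine cells. The same rods held 1705 and 1756 CPM of 8 cone markers and 1493 and 1056 CPM of 8 bipolar markers, so that at P2 the cone list exceeded the rod list in 6 of 10 libraries and P2 cones held more of the rod list (2882 CPM) than P2 rods. A list of 8 amacrine genes (*Pax6*, *Gad1* and others) summed to 2967 and 1907 CPM in amacrine cells against 121 and 87.2 in rods. Bipolar cells at P2 came from only 2 libraries with 20 or more of them, and 3 of 8 bipolar markers were at 0 there (*Vsx1*, *Grm6* and *Trpm1*). Their summed level was 1104 CPM, mostly *Otx2*, against 1493 CPM in P2 rods, so the label is not borne out at P2, while at P5 it was 4649 against 1056 CPM. Cones held 5786 CPM of 8 cone markers at P2 and 4102 at P5, and 3339 CPM of rod markers at P5. The exception was P5 control 2, whose cones held 9600 CPM of rod markers against 2007 CPM of cone markers. The rods of that library held 12355 and 2367 CPM of these lists. Amacrine cells at P5 ranged from 23.9 to 1702 CPM of rod markers between libraries. In P5 control 1 they held 1702 CPM of rod markers against 1529 CPM of amacrine markers. The corresponding values were 1519 and 1477 CPM in P5 MEIS2 replicate 1 and 1513 and 1645 CPM in P5 MEIS1 replicate 1. Rod marker values are set beside some of the results they touch.

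Reference sequence upstream of the members was taken from the RefSeq promoter table (build GRCm38.p6), in which 8 of the 10 members were found; *Snap25* and *Cplx4* were not. The first pair below is shown because the ribbon and the conventional syntaxin moved in opposite directions in rods relative to amacrine cells between the ages. *Cplx3* and *Cacna1f* follow as the ribbon complexin that was not highest in photoreceptors and the ribbon channel, which was. The windows are the 250 bases before each gene's start, cut to 230 for *Cacna1f* where an annotated transcript begins: *Stx3* at chr19:11819404-11819653 on the minus strand, *Stx1a* at chr5:135023232-135023481 on the plus strand, *Cplx3* at chr9:57606282-57606531 on the minus strand and *Cacna1f* at chrX:7606853-7607082 on the plus strand. They are written 5′ to 3′ on the gene's strand, and capitals mark the MEIS core motif TGACAG or its reverse complement CTGTCA.
Stx3: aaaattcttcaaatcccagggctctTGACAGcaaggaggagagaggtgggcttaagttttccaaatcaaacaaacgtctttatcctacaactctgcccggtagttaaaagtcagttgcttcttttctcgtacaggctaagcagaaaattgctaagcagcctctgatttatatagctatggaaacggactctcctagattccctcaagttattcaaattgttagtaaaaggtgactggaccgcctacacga
Stx1a: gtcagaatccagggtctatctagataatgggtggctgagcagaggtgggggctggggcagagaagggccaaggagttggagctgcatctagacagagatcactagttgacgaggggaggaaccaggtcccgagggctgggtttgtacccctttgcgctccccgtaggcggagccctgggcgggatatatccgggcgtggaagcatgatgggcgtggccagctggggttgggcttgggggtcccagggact
Cplx3: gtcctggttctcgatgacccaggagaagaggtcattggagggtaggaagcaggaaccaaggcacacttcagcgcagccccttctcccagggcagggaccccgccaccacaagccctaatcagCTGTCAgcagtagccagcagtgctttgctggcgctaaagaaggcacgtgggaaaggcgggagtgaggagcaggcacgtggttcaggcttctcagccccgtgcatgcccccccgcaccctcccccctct
Cacna1f: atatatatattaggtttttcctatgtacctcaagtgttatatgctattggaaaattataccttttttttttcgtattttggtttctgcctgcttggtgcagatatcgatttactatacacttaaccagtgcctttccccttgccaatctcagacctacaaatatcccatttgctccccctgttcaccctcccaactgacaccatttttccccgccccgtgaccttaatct
The MEIS core was searched because MEIS factors were overexpressed, and the core TAATCC (reverse complement GGATTA) because it is the site of CRX and OTX2, factors of photoreceptors and bipolar cells; the 2 motifs do not overlap each other. TGACAG on either strand lay in 15.9% and TAATCC in 6.25% of the 32851 promoters of the same length in the table. Among the members, the MEIS core began 225 bases before the start of *Stx3*, 128 before that of *Cplx3* and 169 before 1 of the starts of *Syt1*. TAATCC was found once, as GGATTA (capitals) 121 bases before an internal start of *Ctbp2*, in 30 bases of the minus strand at chr7:133015351-133015380.
Ctbp2: taaggtttcagaGGATTAataatttaggtc
That internal start heads an annotated GENCODE transcript of 988 codons, against 445 in the longest of the transcripts from the upstream start. Their 3′ ends lie at positions 132987578 and 132987621 of chromosome 7, so a count from the 3′ end cannot separate RIBEYE from the CtBP2 protein, and *Ctbp2* values below hold both. A match is a description of these letters and not a bound site.

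Among the authors' cell types, *Stx3*, *Cplx4*, *Cplx2*, *Snap25*, *Ctbp2* and *Cacna1f* stood higher in rods than in the amacrine cells of the same library in at least 9 of 10 libraries at each age, and *Cplx3* stood lower in 9 of 10 at P2 and 8 of 10 at P5. The types were built from clusters of these same cells, so all differences between types are descriptions, for which a count of calls stands beside the share of all genes called and supports nothing. In edgeR's quasi-likelihood fit with the library as a block, where genes whose p stayed under 0.05 after Benjamini-Hochberg adjustment across all genes count as called, 9 of 10 members were called in rods against amacrine cells at P2 and 9 at P5. Of all 16160 genes tested 62.7% and 65.7% were called. In cones 7 members were called at P2 and 5 at P5, against 36.7% and 27.6% of all genes, and in bipolar cells 1 and 7, against 5.47% and 46.9%. The members' median log2 difference from amacrine cells was 1.20 at P2 and 1.42 at P5 in rods (all genes -0.02 and 0.04), 1.07 and 0.31 in cones (-0.16 and -0.33) and 0.49 and 0.47 in bipolar cells (-0.26 and 0.02). The plots of level by library and of difference from amacrine cells show all 10 genes.

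**Figure D1:**
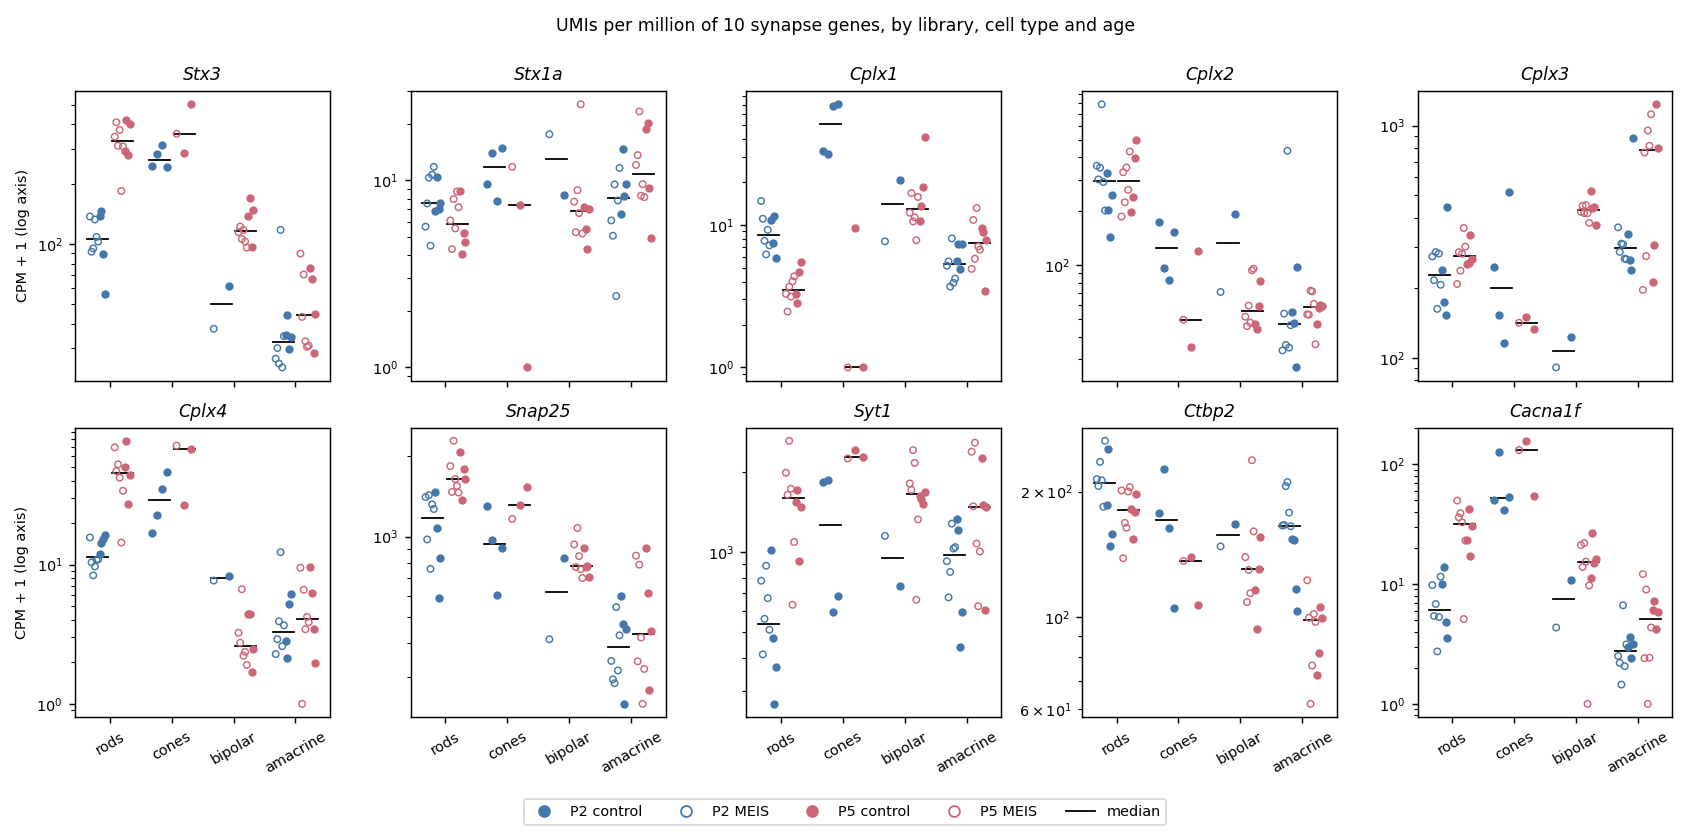
CPM plus 1 on a log axis for each gene (1 panel each), with 1 point per library in rods, cones, bipolar cells and amacrine cells at P2 (blue) and P5 (red); filled points are controls, open points MEIS libraries and black lines medians. *Stx3* in rods lies between 55.5 and 146 CPM at P2 and between 184 and 416 at P5, with no overlap.

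**Figure D2:**
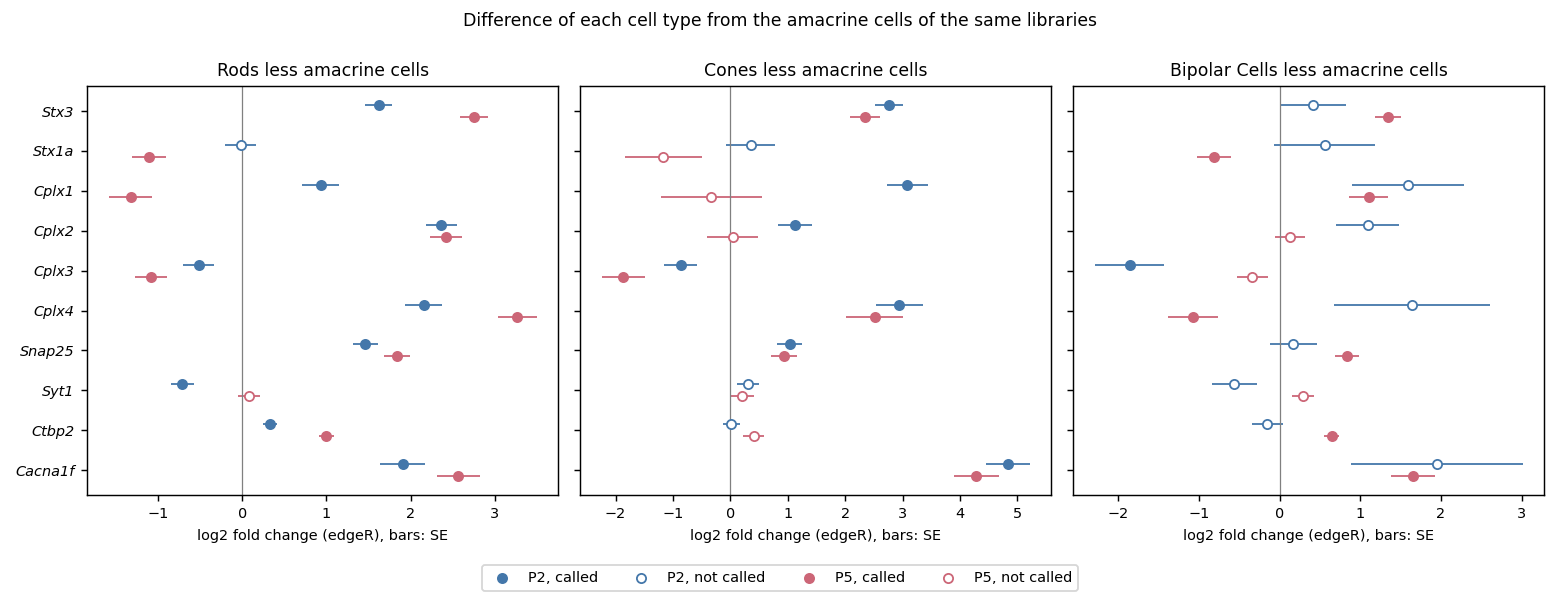
Log2 fold change (edgeR) of rods, cones and bipolar cells against the amacrine cells of the same libraries, at P2 (blue) and P5 (red), with bars for the standard error and filled points for genes called. In rods *Stx3* and *Cplx4* lie to the right at both ages, and *Cplx1* lies on opposite sides of 0 at P2 and P5.

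*Stx3*, the syntaxin of ribbon terminals, was at a low, median and high of 55.5, 105 and 146 CPM in the rods of the 10 P2 libraries and 184, 328 and 416 CPM in those of P5. In amacrine cells the corresponding values were 23.1, 31.2 and 117 CPM at P2 and 27.5, 43.0 and 88.7 at P5. Rods were above the amacrine cells of their own library in 10 of 10 libraries at each age, and at P5 every rod value exceeded every amacrine value. The difference was 1.62 ± 0.16 (log2, SE) at P2 and 2.75 ± 0.17 at P5. The amacrine value of 117 CPM at P2 came from P2 MEIS2 replicate 2, the library of low depth, where progenitors read 101 CPM against 7.49 to 18.3 in the other 9 libraries.

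Cones held *Stx3* at 245, 282, 312 and 242 CPM in the 4 P2 controls and at 285 and 502 CPM in 2 P5 controls and 357 CPM in P5 MEIS1 replicate 1. These values overlapped between ages and lay above all P2 rods. Bipolar cells at P5 ranged from 95.2 to 170 CPM (median 115, 10 libraries), between amacrine cells and rods without overlapping either. In order of their P5 medians the types ran cones, rods, bipolar cells and amacrine cells, and the first 2 of these overlapped. The 502 CPM of P5 control 2 rests on 38 UMIs in 24 cells. Those cones held 9600 CPM of rod markers against 2007 CPM of cone markers. The cone values of 285 and 357 CPM lay on either side of the rod median, so the order of cones and rods is not settled. The cone and bipolar differences from amacrine cells at P5 were 2.34 ± 0.26 and 1.34 ± 0.16 (log2, SE).

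*Stx1a*, the conventional plasma-membrane syntaxin, was scarce in all 4 types. Its low, median and high were 3.47, 6.54 and 10.8 CPM in rods at P2 and 3.04, 4.82 and 7.82 at P5, and 1.41, 7.03 and 13.8 in amacrine cells at P2 and 3.90, 9.82 and 22.4 at P5. Rods were below the amacrine cells of their library in 10 of 10 libraries at P5 and in 4 of 10 at P2, and the ranges overlapped at both ages. Amacrine *Stx1a* at P5 was at 17.8 and 19.3 CPM in controls 1 and 2, 11.1 in MEIS1 replicate 1 and 22.4 in MEIS2 replicate 1. It was at 3.90 to 12.7 CPM in the rest. Rod markers in the amacrine cells of the named libraries summed to 1702, 751, 1513 and 1519 CPM, and their part in these values was not tested. The difference was -0.02 ± 0.19 (log2, SE) at P2, which turned to 0.03 without TMM scaling, and -1.11 ± 0.21 at P5. In P5 bipolar cells it was -0.81 ± 0.22. Cones of P5 control 2 had no *Stx1a* UMI, which allows up to 39.6 CPM (3 counts), so cones say little here.

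As a share of the UMIs of both syntaxins, *Stx3* made up a median of 93.4% in rods at P2 and 98.5% at P5, 96.1% and 97.8% in cones, 95.7% in bipolar cells at P5 and 79.7% and 79.2% in amacrine cells. Since a 3′ count takes 1 UMI per molecule the share is not scaled by transcript length, but 2 genes may be captured with different efficiency. In controls the share in rods was 93.2% ± 2.72 (SD, n = 4) at P2 and 98.6% ± 0.851 (n = 4) at P5, without overlap. The exact two-sided permutation test over the 4 and 4 libraries gave p = 0.0286, the smallest that this design allows, and 0.171 after Benjamini-Hochberg adjustment over 6 shares and types, so it did not pass. In amacrine cells the control share was 80.3% ± 4.13 (SD, n = 4) and 81.8% ± 6.88 (n = 4), with exact permutation p = 0.714.

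**Figure D3:**
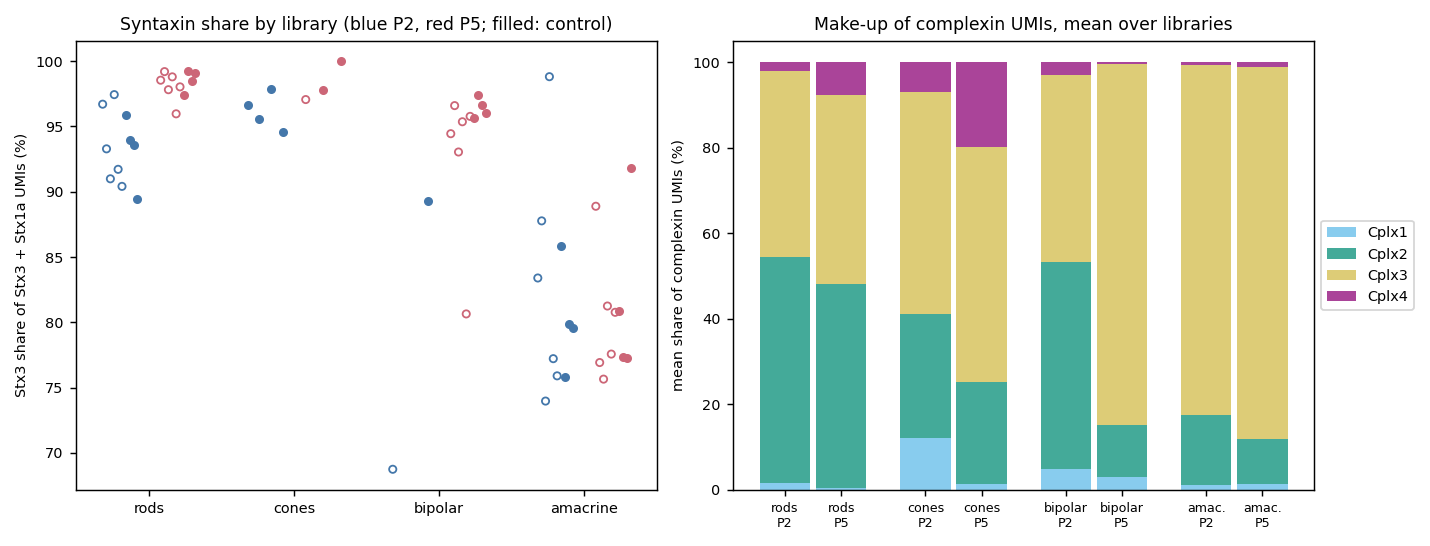
Left, the *Stx3* share (%) of *Stx3* plus *Stx1a* UMIs, 1 point per library (blue P2, red P5, filled control); right, the mean share (%) of each complexin among the UMIs of the 4 complexin genes, as stacked bars for each cell type and age. Rods at P5 lie between 96.0% and 99.3% in the left panel, and in the right panel *Cplx3* fills 87.1% of the amacrine bar and 44.3% of the rod bar at P5.

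Of the 4 complexin genes, *Cplx4* and *Cplx2* stood higher in rods than in amacrine cells at both ages and *Cplx3* lower, while *Cplx1* was higher at P2 and lower at P5. *Cplx3*, the most abundant complexin in amacrine cells, was at a low, median and high of 238, 296 and 887 CPM there at P2 and 195, 781 and 1233 at P5. In rods it was at 153, 226 and 446 CPM and 207, 273 and 361 CPM. The ranges overlapped at both ages, and rods were above the amacrine cells of their library in only 1 of 10 libraries at P2 and 2 of 10 at P5. The difference of rods from amacrine cells was -0.52 ± 0.18 (log2, SE) at P2 and -1.09 ± 0.19 at P5. Cones were lower still against amacrine cells, by -0.87 ± 0.29 and -1.87 ± 0.38. Bipolar cells at P5 held 373 to 524 CPM, inside the amacrine range.

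The amacrine *Cplx3* values at P5 fell into separate ranges. They were 212 and 306 CPM in P5 controls 1 and 2, 195 in MEIS1 replicate 1 and 273 in MEIS2 replicate 1, and 765 to 1233 CPM in the other 6 libraries. Rod markers summed to 1702, 751, 1513 and 1519 CPM in the amacrine cells of those 4 libraries and to 23.9 to 584 CPM in the other 6. Their amacrine *Snap25* stood at 907, 615, 848 and 785 CPM against 237 to 443 in the rest, and amacrine *Stx3* at 75.2, 65.8, 88.7 and 69.5 against 27.5 to 43.9. The part of rod RNA in these values was not tested. At P2 the highest *Cplx3* values of amacrine cells (887 CPM), rods (446) and cones (516) all came from P2 control 4.

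*Cplx4*, a complexin known from photoreceptor terminals, stood higher in both photoreceptor types than in amacrine cells and, at P5, than in bipolar cells. Rods held 7.36, 10.4 and 15.3 CPM (low, median, high) at P2 and 13.4, 44.2 and 76.2 at P5, and amacrine cells 1.12, 2.29 and 11.3 and 0, 3.03 and 8.52. Rods exceeded their library's amacrine cells in 9 of 10 libraries at P2 and 10 of 10 at P5, by 2.16 ± 0.22 and 3.27 ± 0.23 (log2, SE). The amacrine high at P2 was again P2 MEIS2 replicate 2. Cones had 15.9, 21.7, 33.9 and 45.0 CPM in the 4 P2 controls and 25.5, 66.0 and 70.3 CPM in 3 P5 libraries. Bipolar cells at P5 were below amacrine cells in 7 of 10 libraries, at 0.690 to 5.65 CPM (difference -1.07 ± 0.31, log2, SE), although they too form ribbons, and the ranges overlapped. Amacrine *Cplx4* at P5 was at 8.52 and 5.27 CPM in controls 1 and 2, 8.48 in MEIS1 replicate 1 and 5.59 in MEIS2 replicate 1. It was at 0 to 3.21 CPM in the rest. Rod markers in the amacrine cells of the named libraries summed to 1702, 751, 1513 and 1519 CPM, and their part in this difference was not tested.

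*Cplx2*, a complexin of conventional synapses, was high in rods. The low, median and high were 143, 295 and 789 CPM at P2 and 186, 296 and 497 at P5, against 25.9, 46.1 and 434 and 35.2, 57.8 and 71.1 in amacrine cells. Rods were higher in 10 of 10 libraries at each age, by 2.37 ± 0.19 and 2.42 ± 0.19 (log2, SE). The P2 highs of both types, 789 and 434 CPM, belonged to P2 MEIS2 replicate 2, whose progenitors also read 395 CPM. Bipolar cells at P5 held 43.0 to 94.6 CPM, a difference of 0.13 ± 0.19 from amacrine cells, and cones differed from them by 1.12 ± 0.30 at P2 and 0.04 ± 0.44 at P5.

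*Cplx1* was the scarcest complexin in rods by P5. At P2 its low, median and high were 4.82, 7.49 and 13.7 CPM in rods and 2.69, 4.36 and 7.04 in amacrine cells, and at P5 1.46, 2.49 and 4.52 against 2.43, 6.44 and 12.1. Rods were above their library's amacrine cells in 8 of 10 libraries at P2 and 1 of 10 at P5, so the difference of 0.93 ± 0.22 (log2, SE) at P2 became -1.33 ± 0.26. Cones of the 4 P2 controls held 31.8, 30.3, 67.9 and 69.2 CPM, above every P2 value of the other 3 types, a difference of 3.08 ± 0.36. At P5 cones had 8.51 CPM in control 1 and no UMI in control 2 or MEIS1 replicate 1, where 0 allows up to 39.6 and 16.2 CPM. Bipolar cells at P5 held 6.81 to 40.2 CPM, above amacrine cells by 1.10 ± 0.24.

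Over the 4 complexins, UMIs in rods at P5 were 47.7% ± 7.61 *Cplx2*, 44.3% ± 6.27 *Cplx3*, 7.59% ± 4.23 *Cplx4* and 0.428% ± 0.106 *Cplx1* (SD, n = 10). In P5 amacrine cells *Cplx3* made up 87.1% ± 8.37 and in P5 bipolar cells 84.5% ± 5.00 (SD, n = 10). In 3 cone samples at P5 *Cplx3* made up 54.8% ± 13.5 and *Cplx4* 19.9% ± 7.70 (SD). The summed share of *Cplx3* and *Cplx4* in control rods was 51.7% ± 9.51 (SD, n = 4) at P2 and 50.9% ± 10.1 at P5, with exact permutation p = 0.971.

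*Snap25*, the membrane SNARE used at both kinds of synapse, was among the higher members in every type. Its low, median and high were 591, 1174 and 1469 CPM in rods at P2 and 1364, 1640 and 2279 at P5, and 237, 385 and 600 and 237, 431 and 907 in amacrine cells. Rods were above in 10 of 10 libraries at each age, by 1.46 ± 0.15 and 1.84 ± 0.15 (log2, SE), and the P5 ranges did not overlap. Cones differed from amacrine cells by 1.03 ± 0.21 and 0.93 ± 0.23, and P5 bipolar cells by 0.84 ± 0.15.

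*Syt1*, the fast calcium sensor, stood close to the amacrine level in every type at P5, with log2 differences of 0.08 in rods, 0.21 in cones and 0.29 in bipolar cells. Rods held 268, 535 and 1017 CPM (low, median, high) at P2 and 634, 1599 and 2631 at P5, and amacrine cells 439, 979 and 1333 and 607, 1484 and 2587. Rods were below their library's amacrine cells in 10 of 10 libraries at P2, by -0.71 ± 0.13 (log2, SE), and above in 7 of 10 at P5, by 0.08 ± 0.13 (-0.14 in DESeq2). P5 bipolar cells, at 662 to 2425 CPM, and P5 cones, at 2256 to 2424 CPM, lay in the same range.

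*Ctbp2*, which encodes RIBEYE and the transcriptional corepressor CtBP2, differed little between types at P2. Rods held 147, 209 and 264 CPM and amacrine cells 102, 164 and 210, a difference of 0.33 ± 0.09 (log2, SE), higher in 10 of 10 libraries. At P5 rods held 137, 179 and 204 CPM and amacrine cells 60.7, 97.3 and 121, without overlap and with a difference of 1.00 ± 0.09. Bipolar cells at P5 held 92.5 to 237 CPM (difference 0.64 ± 0.09) and cones 106 to 138 CPM. Progenitors, which have no synapse, held a median of 62.2 CPM at P2 and 60.3 at P5.

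*Cacna1f*, the pore of the L-type calcium channel of photoreceptor terminals, was highest in cones. The 4 P2 controls had 49.6, 126, 40.7 and 51.9 CPM in cones, and the 3 P5 samples 155, 52.8 and 130 CPM. Rods held 1.74, 5.11 and 12.8 CPM (low, median, high) at P2 and 4.10, 30.6 and 48.6 at P5, and amacrine cells 0.448, 1.74 and 5.63 and 0, 4.10 and 11.1. All cone values exceeded all rod values at both ages, and rods were above their amacrine cells in 9 of 10 libraries at P2 and 10 of 10 at P5. The lowest P5 cone value, 52.8 CPM in P5 control 2, rests on 4 UMIs in 24 cells. Those cones held 9600 CPM of rod markers against 2007 CPM of cone markers. Against amacrine cells cones were higher by 4.83 ± 0.39 and 4.28 ± 0.40 (log2, SE), rods by 1.91 ± 0.27 and 2.57 ± 0.26, and P5 bipolar cells by 1.65 ± 0.27. The low of 4.10 CPM in P5 rods belonged to P5 combination replicate 1, which also had the lowest *Stx3* (184), *Cplx4* (13.4) and *Syt1* (634 CPM) of the P5 rods. Its rods also had the lowest sum of rod markers at P5, 3363 CPM against 5704 to 12355 CPM in the other 9 libraries, and the part of that in these lows was not tested. Bipolar cells of that library, which held 1951 CPM of bipolar markers against 3742 to 5941 CPM in the others, had no *Cacna1f* UMI, which allows up to 4.09 CPM.

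Counted by cells, 31.3% of rods per library (median of 10) had a *Stx3* UMI at P2 and 72.3% at P5, at median depths of 4312 and 5130 UMIs per cell. In progenitors, which lack a synapse, the shares were 11.4% and 11.98% at 9990 and 19899 UMIs. With every cell thinned to 2000 UMIs, which left out 3666 rods of P2 and 2835 of P5, the rod shares were 18.9% and 47.8% and the progenitor shares 1.87% and 1.67%. For *Cplx4* the thinned shares were 2.68% and 8.68% in rods against 0.341% and 0 in progenitors, and for *Cacna1f* 1.41% and 5.71% in rods against 0 at both ages.

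Rods of older control explants held more RNA of the ribbon syntaxin, the ribbon channel, *Cplx4* and *Syt1*, and less *Cplx1*. In this comparison the libraries are the replicates, so each gene was tested. In control P5 against control P2 rods 5 of 10 members passed, 4 higher and 1 lower. Of the 14786 genes tested 13.2% passed, 7.24% higher and 5.94% lower. Members and lists were chosen with earlier results of these data known, so counts beside these shares, here and below, are descriptions. Leaving out each control library in turn gave 3 to 6 members. The median log2 change of the members was 0.59, against 0.00 for all genes. The plot of control levels shows each library. The median mitochondrial percent per cell was also higher at P5, at 3.31% and 6.36% in rods, 3.72% and 9.34% in amacrine cells and 6.83% and 14.8% in cones of all libraries, and its part in the age differences was not tested.

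**Figure D4:**
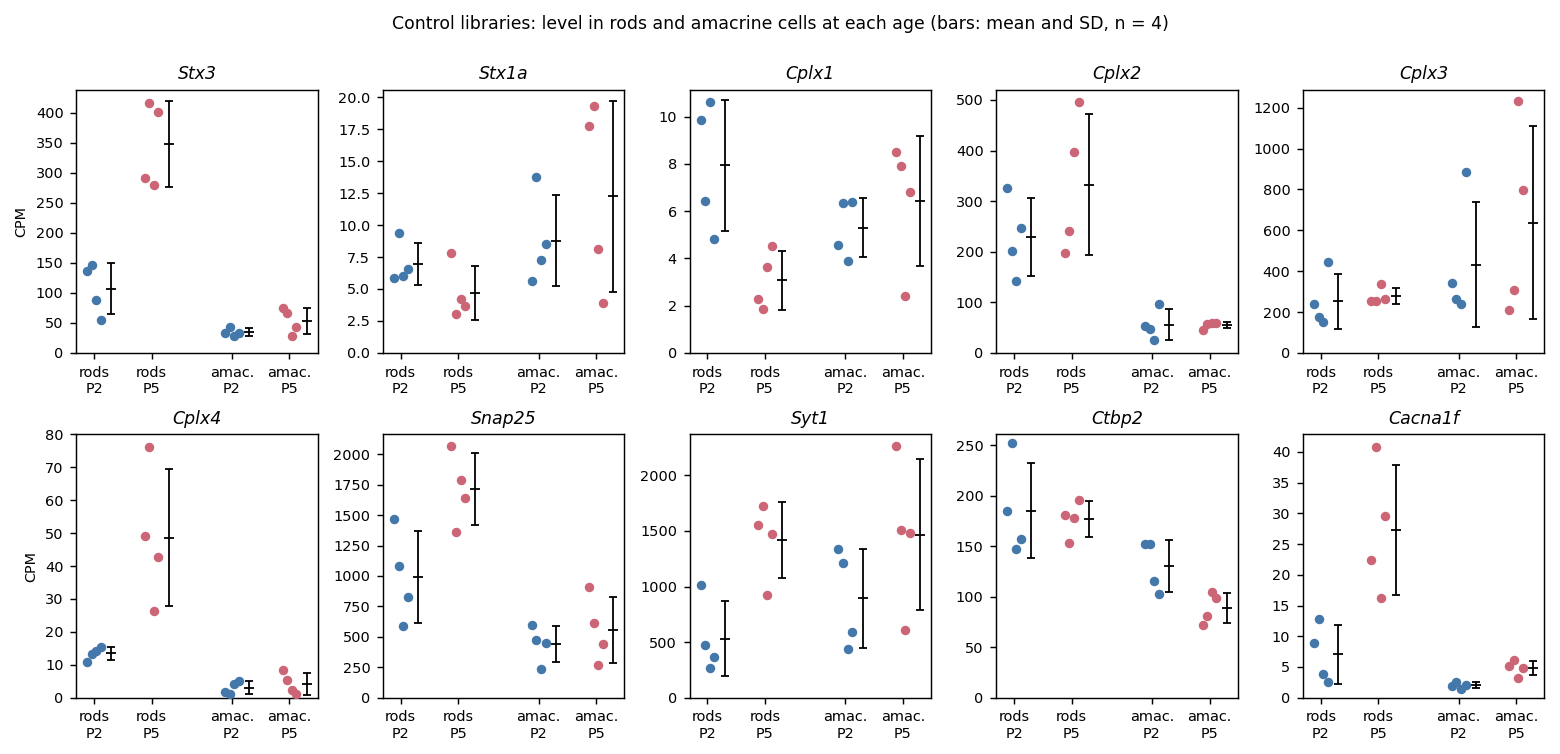
CPM of each gene (1 panel each) in rods and amacrine cells of the 4 P2 and 4 P5 control libraries, 1 point per library, with the mean and SD beside each group. In rods the P5 points of *Stx3*, *Cplx4* and *Cacna1f* all lie above the P2 points, those of *Cplx1* all lie below, and *Syt1* overlaps.

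*Stx3* in control rods was at 137, 146, 87.8 and 55.5 CPM in P2 replicates 1 to 4 and 292, 416, 280 and 402 CPM in P5 replicates 1 to 4. The groups did not overlap: the nearest values were 146 and 280 CPM. The rise was 1.64 ± 0.25 (log2, SE; edgeR adjusted p = 0.000702). It passed in each of the 3 clusters that make up the authors' rods, by 1.70, 1.70 and 0.91. The conventional *Stx1a* was at 5.84, 9.39, 6.04 and 6.56 CPM at P2 and 7.82, 3.04, 4.23 and 3.66 at P5, which overlapped, and it did not pass (-0.62 ± 0.33, edgeR adjusted p = 0.229).

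*Cplx4* stood at 10.9, 13.3, 14.3 and 15.3 CPM in P2 control rods and at 49.2, 76.2, 26.2 and 42.6 CPM in P5, without overlap. It rose by 1.77 ± 0.30 (log2, SE; edgeR adjusted p = 0.00120). *Cplx1* moved the other way, from 9.88, 6.42, 10.6 and 4.82 CPM to 2.27, 1.84, 3.64 and 4.52 CPM. All 4 P5 values lay below all 4 P2 values, the nearest being 4.52 and 4.82 CPM, and the fall was -1.46 ± 0.32 (edgeR adjusted p = 0.00626). *Cplx2* (325, 202, 143 and 247 CPM against 197, 240, 397 and 497) and *Cplx3* (238, 173, 153 and 446 against 252, 255, 337 and 266) overlapped and did not pass, with differences of 0.46 ± 0.33 and 0.03 ± 0.30 and edgeR adjusted p-values of 0.400 and 0.965.

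*Cacna1f* went from 8.94, 12.8, 3.84 and 2.54 CPM to 22.3, 40.9, 16.2 and 29.6 CPM in control rods, without overlap. The rise was 1.89 ± 0.49 (log2, SE; edgeR adjusted p = 0.0158), and it was lost without P2 control 3 or without P5 control 2. *Syt1* was at 1017, 474, 268 and 368 CPM at P2 and 1551, 1722, 923 and 1475 at P5. Only P2 control 1 overlapped the P5 values, and the rise of 1.36 ± 0.35 (edgeR adjusted p = 0.0172) was lost without P2 control 3, P2 control 4 or P5 control 2. *Snap25* (1469, 1080, 591 and 829 CPM against 2071, 1364, 1789 and 1641) overlapped and did not pass at 0.73 ± 0.28 (edgeR adjusted p = 0.0971). *Ctbp2* was flat within its spread, at 185, 252, 147 and 157 CPM against 181, 153, 178 and 196 CPM, with a difference of -0.14 ± 0.17 (edgeR adjusted p = 0.669).

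The 3 clusters of the authors' rods held 49.3%, 32.1% and 18.5% of the rods at P2 and 32.9%, 30.8% and 36.2% at P5, and the summed rod markers stood at a median of 1479 and 9039 CPM and the cone markers at 1705 and 1756 CPM beside these values. Their part in the differences between the ages was not tested. Within cluster 0 alone 5 members passed in the control contrast, within cluster 1 alone 4 and within cluster 2 alone 3. The share of all genes passing within each cluster is not reported here, so these counts are descriptions. *Stx3* and *Cplx4* passed in all 3 clusters, while *Cplx1* passed only in cluster 2 (-2.64, against -0.92 and -1.39 in clusters 0 and 1). With the 4 treatments weighted alike over all 20 libraries, 6 members passed in rods, where 30.9% of all genes did: *Stx3* (1.59 ± 0.17, log2, SE), *Cplx4* (1.98 ± 0.21), *Cacna1f* (2.07 ± 0.34), *Syt1* (1.31 ± 0.23) and *Snap25* (0.60 ± 0.19) rose and *Cplx1* (-1.64 ± 0.22) fell. *Snap25* did not pass without the 4 replicate 1 libraries of P5 or within cluster 1 or cluster 2.

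In amacrine cells no member passed between control ages in edgeR (1 in DESeq2, *Ctbp2*), where 0.397% of 13097 genes did. At an unadjusted edgeR p under 0.05, 1 of 10 members and 1166 genes passed. *Stx3* was at 33.9, 43.2, 28.7 and 33.2 CPM in P2 control amacrine cells and 75.2, 65.8, 27.5 and 43.9 at P5, and the groups overlapped. *Cacna1f* in control amacrine cells was at 1.97, 2.61, 1.39 and 2.13 CPM at P2 and 5.11, 6.14, 3.24 and 4.88 CPM at P5. All P5 values lay above all P2 values, as in rods, and it did not pass (1.19 ± 0.74, log2, SE; edgeR adjusted p = 0.652). These values rest on 99, 7, 5 and 7 UMIs at P2 and 21, 7, 4 and 5 UMIs at P5. The same amacrine sums held 300, 306, 261 and 285 CPM of rod markers at P2 and 1702, 751, 308 and 584 CPM at P5, and their part in these values was not tested. *Ctbp2* went from 152, 152, 115 and 102 CPM to 71.6, 80.8, 104 and 98.5 CPM, overlapping at 1 library (-0.63 ± 0.20, log2, SE; edgeR adjusted p = 0.254). Over the 4 treatments 1 member passed, against 6.65% of genes: *Ctbp2* fell by 0.90 ± 0.13 on the log2 scale (edgeR adjusted p = 0.000724), from 102 to 210 CPM in the 10 P2 libraries to 60.7 to 121 CPM in the 10 of P5. *Cplx3* over the 4 treatments was 0.98 ± 0.40 (adjusted p = 0.152), with the library ranges described above.

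Cones could be compared between 4 P2 controls and 2 P5 controls only. None of the 9 members tested passed in edgeR or in DESeq2, where 0.0605% of 6607 genes passed in edgeR, and 1 member (*Cplx1*) and 609 genes had an unadjusted edgeR p under 0.05. *Cplx1* had the largest difference, -2.79 ± 0.91 (log2, SE; edgeR adjusted p = 0.497). Its P5 value of 8.51 CPM lay below all 4 P2 values, while the 0 of P5 control 2 allows up to 39.6 CPM, which is above the P2 values of 31.8 and 30.3. *Snap25* (1302, 971, 604 and 903 CPM against 1311 and 1532) and *Syt1* (1841, 1868, 597 and 685 against 2424 and 2285) had both P5 values above all 4 P2 values in cones, with differences of 0.51 ± 0.60 and 0.89 ± 0.68 (edgeR adjusted p = 0.819 and 0.685). The second P5 value of each is P5 control 2, whose cones held 9600 CPM of rod markers, against 3218 CPM in P5 control 1 and 2350 to 5306 CPM in the P2 controls. The part of these markers in the cone differences was not tested. Bipolar cells reached 20 cells in only 1 P2 control. At 10 or more cells, a rule added after the data were seen, 3 members passed between control ages, where 8.18% of genes did: *Stx3* with a difference of 1.46 ± 0.29, *Cplx3* with 1.66 ± 0.33 and *Syt1* with 1.42 ± 0.27 (log2, SE; edgeR adjusted p = 0.00729, 0.00725 and 0.00560). Without P2 control 1 only *Syt1* passed. The bipolar sum of P2 control 1 held 462 CPM of amacrine markers and 1424 CPM of bipolar markers, against 22.1 to 60.2 and 4042 to 5941 CPM in the P5 controls, so the P2 label is not borne out, and the part of these markers in the differences was not tested.

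**Figure D5:**
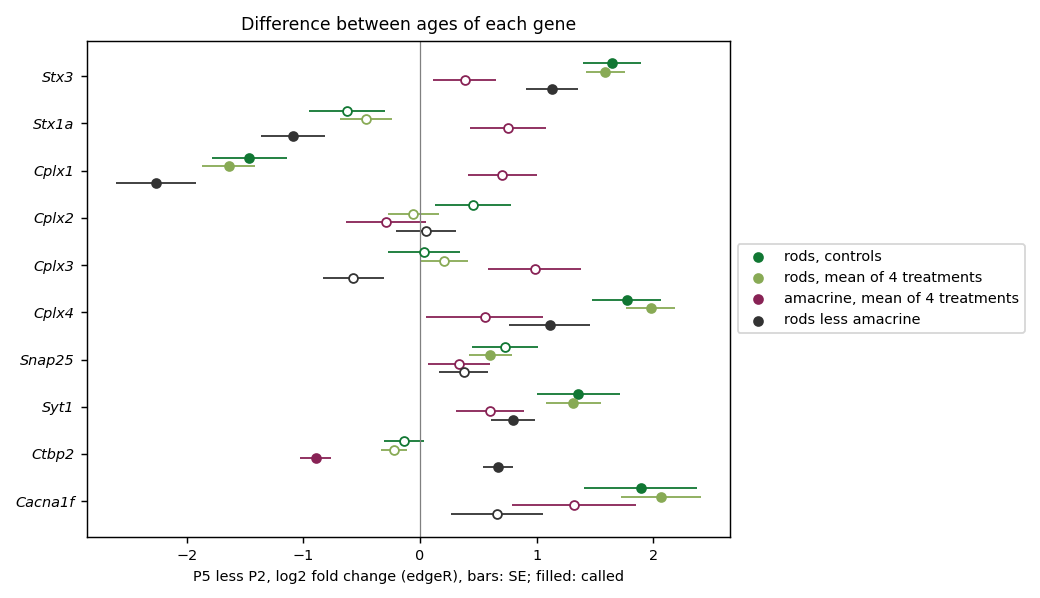
P5 less P2 log2 fold change (edgeR) of each gene, with bars for the standard error, for rods of the controls (dark green), rods over 4 treatments (light green), amacrine cells over 4 treatments (purple) and the rod change less the amacrine change (black); filled points passed. *Stx3*, *Cplx4*, *Cacna1f* and *Syt1* lie to the right in rods and *Cplx1* to the left, and *Ctbp2* is the filled amacrine point, at -0.90.

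Whether rods and amacrine cells differed in their change with age was tested directly, as the P5 term of rods less the P2 term in the fit with the library as a block. Here 6 of 10 members passed, against 19.2% of 16160 genes. *Stx3* (1.13 ± 0.23, log2, SE; edgeR adjusted p = 0.000274), *Cplx4* (1.11 ± 0.35; 0.0189), *Syt1* (0.79 ± 0.19; 0.00198) and *Ctbp2* (0.67 ± 0.13; 0.000152) gained in rods relative to amacrine cells. *Cplx1* (-2.26 ± 0.34; 4.47e-06) and *Stx1a* (-1.09 ± 0.28; 0.00397) lost. For *Ctbp2* the rod median was 209 CPM at P2 and 179 at P5 while the amacrine median was 164 and 97.3, so both medians were lower at P5, the amacrine one by more. *Cplx2* (0.05 ± 0.26, and -0.07 in DESeq2), *Cplx3* (-0.57 ± 0.26), *Snap25* (0.37 ± 0.21) and *Cacna1f* (0.66 ± 0.40) did not pass. In the 8 control libraries alone only *Stx3* passed, and *Cplx4* was lost without P2 control 4 and without the cells called doublets. Rod markers summed to 64.7 to 958 CPM in amacrine cells at P2 and 23.9 to 1702 at P5, and their part in these differences was not tested.

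The same test in bipolar cells passed for *Cplx3* (1.52 ± 0.47, edgeR adjusted p = 0.0339) and *Ctbp2* (0.80 ± 0.22, edgeR adjusted p = 0.0160), where 8.30% of genes passed. Leaving out 1 of 18 libraries at a time gave 0 to 3 members. The 2 P2 libraries with 20 or more bipolar cells could not be left out, since the test needs both. The bipolar sums held 460 to 462 CPM of amacrine markers at P2 and 22.1 to 65.4 CPM at P5, and their part in these values was not tested. In cones none of the 10 passed in edgeR or DESeq2, where 0.0990% of genes did in edgeR, and at an unadjusted edgeR p under 0.05 there were 3 members and 1544 genes.

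The MEIS constructs, the treatment of the study, moved no member past the test in the types where it could be run. Against controls the mean of the 3 MEIS groups differed by -0.59 to 0.52 (log2, the 10 members) in rods at P2 and by -0.31 to 0.24 at P5. In amacrine cells the differences were -0.62 to 0.40 and -0.25 to 0.09, and in P5 bipolar cells -0.74 to 0.59. edgeR called 0.00% of genes in each of the 4 rod and amacrine contrasts and 0.00678% in bipolar cells, and DESeq2 called no member in any of the 5. At an unadjusted edgeR p under 0.05 there was 1 member in P2 amacrine cells (*Ctbp2*), 1 in P5 bipolar cells (*Stx3*) and none in rods, against 1618 genes in P2 rods, 107 in P5 rods, 543 and 163 in amacrine cells and 563 in bipolar cells. With 2 libraries per MEIS group the comparison has limited precision. No gene was called in the 4 rod and amacrine contrasts, so *Meis1* and *Meis2* were not called there either. Their levels over all cells did follow the constructs, so the lack of calls says little about the members.

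Other genes of the release machinery were read from 5 lists, against 7.24% of all genes higher and 5.94% lower in control rods. The lists too were chosen with earlier results of these data known, so their counts are descriptions. In control rods from P2 to P5, 8 of 17 synaptic vesicle genes rose and none fell, among them *Slc17a7*, the vesicular glutamate transporter of photoreceptors (2.35 ± 0.38, log2, SE), and *Dnm1*, a dynamin of vesicle retrieval (1.96 ± 0.41). The list's median was 0.60 against 0.00 for all genes. Of 11 calcium channel genes, *Cacna1f* included, 4 rose and 1 fell: *Cacnb2*, a channel beta subunit, rose by 3.33 ± 0.73, *Cacna2d4*, the photoreceptor alpha2delta subunit, by 0.75 ± 0.20, and *Cacna1a*, the pore of P/Q-type channels, fell by 1.02 ± 0.27. Of 9 genes of adhesion at photoreceptor terminals 3 rose and none fell, among them *Elfn1*, which recruits a bipolar cell glutamate receptor across the rod synapse (2.17 ± 0.43), and *Cadm1*, an adhesion molecule (2.00 ± 0.48). Of 21 SNARE and fusion genes, 8 of the members included, 5 rose and 1 fell, with *Napb* (0.75 ± 0.18), which helps take SNARE complexes apart, besides the members. The other was *Snap91* (1.35 ± 0.26), on this list although its product AP180 is a clathrin assembly protein of vesicle endocytosis. None of the 15 active zone genes passed.

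In amacrine cells between control ages, where 0.397% of all genes passed, 1 of 17 vesicle genes rose (*Amph*, an endocytic protein, 1.52 ± 0.27) and 1 of 11 calcium channel genes (*Cacna2d3*, an alpha2delta subunit, 2.35 ± 0.33). No gene of the other 3 lists passed. The vesicle list's median was 0.88 there and 0.60 in control rods. Rod markers in these amacrine cells ran from 261 to 306 CPM at P2 and from 308 to 1702 CPM at P5, and their part in the list's values was not tested. Over 4 treatments 9 of 17 vesicle genes rose and none fell in amacrine cells (median 1.18), where 6.65% of all genes passed, and 8 of 17 rose and none fell in rods (median 1.28), where 30.9% did. In the test of the rod change less the amacrine change 4 vesicle genes passed higher and 3 lower, against 19.2% of all genes.

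Against amacrine cells at P5, where 65.7% of all genes were called in rods, 5 vesicle genes were higher in rods and 9 lower (median -1.42), 4 active zone genes higher and 11 lower (-0.79), 4 calcium channel genes higher and 6 lower (-1.99), 9 SNARE and fusion genes higher and 9 lower (0.08) and 4 adhesion genes higher and 4 lower (0.28), against a median of 0.04 for all genes. The genes named next are among those with the largest differences. Rods had more *Unc13b* (1.72 ± 0.18) and *Pclo* (1.34 ± 0.17), proteins of vesicle priming and the ribbon, more *Cacna2d4* (3.54 ± 0.30), *Slc17a7* (3.84 ± 0.32) and *Doc2b* (2.55 ± 0.27), and less *Rims1* (-4.03 ± 0.30), *Rph3a* (-5.65 ± 0.31), *Cacna1d* (-5.20 ± 0.26), *Cacna2d3* (-6.77 ± 0.34) and *Syt7* (-4.45 ± 0.22). Bipolar cells shared more *Unc13b* (2.23 ± 0.19) and *Cacna2d4* (4.27 ± 0.30) and less *Rph3a* (-5.14 ± 0.33), but had more *Cacna2d1* (3.18 ± 0.24) and less *Doc2b* (-2.15 ± 0.35). *Slc32a1*, the vesicular transporter of GABA and glycine and itself an amacrine marker here, differed by -5.74 ± 0.39 in rods and -7.01 ± 0.48 in bipolar cells. Cones had the same sign as rods for *Cacna2d4* (3.44 ± 0.45), *Doc2b* (2.62 ± 0.50) and *Rims1* (-4.37 ± 0.77).

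Across 59 sums of library and type, the genes of 5056 whose log2 level ran most like *Cplx4* included *Prom1* (Pearson r = 0.919) and *Tulp1* (0.914). For *Stx3* the 3 most alike were *Laptm4b* (0.920), *Ybx3* (0.918) and *Pitpnm1* (0.913), for *Snap25* they included *Hook1* (0.917) and *Cep290* (0.907), and for *Syt1* they were *Snap91* (0.911), *Fam168a* (0.899) and *Dlg2* (0.895). For *Cplx2* the most alike was *Nap1l1* (0.898) and for *Cacna1f* *Gm26954* (0.864). *Cplx3*, *Ctbp2*, *Stx1a* and *Cplx1* had no partner above 0.779. Among the members *Stx3* ran most like *Snap25* (0.854), *Cacna1f* (0.826) and *Cplx4* (0.760), while *Stx3* and *Cplx3* had r = -0.40. The sums share libraries, and types of one library share its depth and free RNA, so these values are descriptions.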

How the data were processed

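Single cells were captured with 10x 3′ chemistry, per the labels' protocols. The authors deposited raw UMI counts per gene and cell with their cell types and, per cell, the percent of mitochondrial UMIs; Cell Ranger, Seurat 5 and mm10 are named in the submitters' processing notes. Each cell's counts summed to its deposited total. Counts were summed per library and cell type where a library held 20 or more cells of it (CPM divides by all UMIs of that sum). Sums were fitted with edgeR 4.0.16 in R 4.3.3 (quasi-likelihood test, TMM scaling, filterByExpr), with Benjamini-Hochberg adjustment over all genes and a threshold of 0.05. Comparisons of types carry the library as a block. DESeq2 1.42.0 was an alternative. Scrublet (scanpy 1.11.5, expecting 6% doublets) marked 3000 cells (3.80%), which were kept except in 1 alternative. Of these, 2003 lay in P2 control 1, or 11.3% of its 17739 cells. P2 controls 2, 3 and 4 had 0%, 6.75% and 3.01%, and the P5 controls 0.0159% to 2.69%. The fits were tested on simulated data. Members and lists were chosen with earlier results of these data known. All 10 members were tested in each comparison, except *Stx1a* in control cones, and values are printed for some of them where none passed. List genes are named by up to 2 per list and direction with the largest called change, where the mean log2 CPM reached 4. Like genes are the 3 with the highest correlation where that mean reached 5, and some of them are not reported here. Limits at 0 cover counting error only. Same-numbered P2 and P5 controls correlated at 0.04 to 0.31 in rods and 0.07 to 0.30 in amacrine cells, so numbers were not treated as pairs.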

Additional observations from a re-analysis of the deposited data

Results flagged for a closer look

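Among 60 groups of 4 control libraries, 4 held a value set apart from its group by Dixon's test, which flags about 1 in 20 groups by chance. *Cacna1f* in cones of P2 control 2 was at 126 CPM against 40.7 to 51.9 in the other 3. *Cplx3* in amacrine cells of P2 control 4 was at 887 CPM against 238 to 340, and the same library had the highest *Cplx3* in rods and cones of P2. *Cplx3* in rods of P5 control 3 was at 337 CPM against 252 to 266, and *Cplx2* in amacrine cells of P5 control 1 at 46.0 CPM against 57.1 to 59.1.

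The change from P2 to P5 differed between rods and amacrine cells for 6 members in edgeR's test of the difference itself. On the log2 scale it was 1.13 for *Stx3*, 1.11 for *Cplx4*, 0.79 for *Syt1*, 0.67 for *Ctbp2*, -1.09 for *Stx1a* and -2.26 for *Cplx1*. Between bipolar and amacrine cells it differed by 1.52 for *Cplx3* and 0.80 for *Ctbp2*, where the P2 side rests on 2 libraries and a label that its markers do not bear out.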

How the results depend on the processing

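No called value changed sign in any alternative. Of the called members' values, 564 kept their side of the threshold and 35 lost it under the other alternatives, and 713 and 25 when 1 library was left out. Counts of members passing that moved by over 1.5 times in any alternative were as follows, where smaller moves are given for the rod difference only. Numbers of all genes passing are given below for some of these alternatives only. Where they are missing, a move of the members cannot be told from a move of all genes, so these counts are descriptions. Bipolar cells against amacrine cells at P2 gave 2 in DESeq2, at 10 or more cells and without doublets (1 otherwise, 1 to 2 leaving out 1 of 8 libraries). The rod difference in age change gave 1 in controls only, against 6 with all libraries, 5 to 7 leaving out a library, 4 without the library block, 5 without doublets, 7 in DESeq2 and 9 without the P5 replicate 1 libraries. The cone difference gave 1 at 10 or more cells, without doublets and without the library block, and 0 to 1 leaving out a library. The bipolar difference gave 1 in DESeq2, 0 without TMM or without the library block, 5 without a filter and 0 to 3 leaving out 1 of 18 libraries. In both bipolar comparisons the 2 P2 libraries with 20 or more bipolar cells could not be left out. The age comparison in rods gave 3 in cluster 2 alone, both in controls and over 4 treatments, and in control rods 3 to 6 leaving out a library. In amacrine cells DESeq2 gave 1 in controls, and over 4 treatments leaving out a library gave 1 to 2. In bipolar cells at 10 or more cells it gave 1 to 4. The cause of these moves was not tested.

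Values that did not pass and turned sign were *Stx1a* in rods at P2 (0.027 without TMM, 0.0044 at 50 or more cells, 0.026 without P2 control 1 and combination 2, -0.086 to 0.082 leaving out a library), *Syt1* in rods at P5 (-0.14, DESeq2), *Cplx2* in the rod difference (-0.069 in DESeq2, -0.16 without doublets, -0.093 to 0.16), *Cplx2* in control rods (-0.078, cluster 2) and over 4 treatments (0.24 without P5 replicate 1 libraries, 0.18 in cluster 0, -0.18 to 0.11), and *Cplx3* in control rods (-0.072 without P2 control 1 and combination 2, -0.085 and -0.011 in clusters 1 and 2, -0.15 to 0.51). This list covers the rod comparisons only, and sign turns of fold changes that did not pass in other types are not reported here. The *Cplx3* and *Cplx4* share in control rods differed by 0.676 points when thinned and by -3.85 to 3.57 leaving out a library. In amacrine cells that share ranged from -1.67 to 3.36 and the *Stx3* share from -1.76 to 3.42.

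DESeq2, which differs in scaling, dispersion model and test, moved the median of all genes from 0.05 to -0.08 in the rod difference (1644 higher and 1463 lower genes became 1222 and 2288), from 0.04 to -0.19 in rods at P5 (5497 and 5127 became 4050 and 6548), from 0.02 to -0.15 in bipolar cells at P5 (3894 and 3693 became 2505 and 4893) and from 0.31 to -0.14 in the bipolar difference (901 and 440 became 319 and 945). Genes passing moved from 3107 to 617 in the rod difference in controls only and from 52 to 193 in control amacrine cells in DESeq2. With the replicate number as a replicate block, 6 members passed in control rods (5 without), 6 over 4 treatments, and 0 and 1 in amacrine cells. The share of all genes passing with that block is not reported here. The correlations of same-numbered libraries did not establish the pairing. Age in bipolar controls at 20 or more cells and MEIS in cones and P2 bipolar cells were not run, for lack of libraries.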
